A study of Mus musculus with 6 samples.

Results

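Cells recognise foreign or misplaced nucleic acids with a small set of receptors and pass the signal on through a few adaptor proteins. The 10 genes described here were chosen by name as such sensors and adaptors, and all 10 were found among the 15634 genes listed, by exact match of the gene symbol. They are Ifih1, Dhx58, Zbp1, Ifi204, Ifi205, Cgas, Tlr2 and Tlr3 on the sensor side and Mavs and Sting1 on the adaptor side. RNA was sequenced from mesenchymal stem cells (MSCs, adherent stromal cells) grown from the bone marrow of wild-type C57BL/6J mice. The TNF group was 3 libraries of cells kept for 24 h with TNF-α, an inflammatory cytokine, at 10 ng/mL. The Control group was 3 libraries of cells left unstimulated, with the same 24 h given in the labels. The series concerns how macrophages act on MSCs through TNF-α after tooth extraction, and the comparison asks which transcripts differ when TNF-α is given to the cultures.

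As background, the RNA branch starts with RIG-I-like receptors in the cytosol, which bind double-stranded RNA and signal through MAVS on mitochondria. The DNA branch starts with cGAS, which makes the messenger cGAMP, and cGAMP activates STING on the endoplasmic reticulum. Both branches lead to the kinases TBK1 and IKKε and to interferon genes, and many of the receptors are themselves induced by interferon. ZBP1 binds nucleic acids in the Z conformation, TLR3 senses double-stranded RNA in endosomes, and the p200 (HIN-200) family, to which Ifi204 and Ifi205 belong, includes DNA-binding proteins. TLR2 sits on the cell surface and is best known as a receptor for bacterial lipoproteins, so its place under a heading of nucleic acid sensors is the loosest of the 10.

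Depth and culture make-up bear on every value below. Library totals lay between 45629973 and 77142418 counts, and the fewest counts of any of the 10 genes in a library was 115. Every gene listed had at least 10 counts in at least 3 libraries. Reads of 18S ribosomal RNA took 19.4% of the counts of TNF library 2, and between 1.10% and 3.55% of those of the other 5 libraries. These reads are part of the deposited TPM (a level per transcript length, scaled to the same total in every library), so the TPM of other genes in TNF library 2 is lower for that reason. All 13 MSC and stromal markers were measured, with a summed level of 4366 to 5103 TPM in TNF libraries and 7305 to 8352 TPM in Control libraries. Of these, Pdgfra, Cd44 and Lepr rose, Thy1 and the collagen genes Col1a1 and Col1a2 fell, and 7 were not called. The groups overlapped in TPM for Thy1 (2.48 to 6.46 TPM in TNF, 4.37 to 6.57 TPM in Control). Lepr had only 59 to 99 counts in TNF libraries and 16 to 51 in Control libraries. Col1a1 averaged 1089 ± 75.6 TPM in TNF and 2369 ± 308 TPM in Control, and Col1a2 averaged 1912 ± 150.4 TPM in TNF and 3274 ± 61.6 TPM in Control (SD, n = 3 each). Of 20 macrophage and monocyte markers 19 were measured, none at 0 in all libraries, with sums of 2539 to 3052 TPM in TNF libraries and 3512 to 4912 TPM in Control libraries. Among these markers 4 rose, 7 fell and 8 were not called, while 16% of all tested genes rose and 16.4% fell. Lyz2, one of the 8, weighed heavily in the sums. It averaged 1321 ± 95.5 TPM in TNF and 1986 ± 446 TPM in Control (SD, n = 3 each). Macrophages express many of the 10 genes, and the cell type in which each gene changed was not tested. In bulk RNA, a different number of cells of a type and a different amount of RNA per cell cannot be told apart. The labels do not say whether replicates were separate cultures or animals, so p-values measure the spread between these libraries.

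Of the 10 genes 8 were higher in TNF, while 32.4% of all tested genes were called (16% higher and 16.4% lower). The other 2, Cgas and Mavs, were not called. A call was an adjusted p under 0.05 in the quasi-likelihood test of edgeR, with p-values adjusted by the Benjamini-Hochberg method over 15547 genes. Of all tested genes 5.81% were called higher with a fitted rise of at least 2-fold, against 7 of the 10 here. The median log2 fold change of the 10 was 1.86, and that of all tested genes was -0.0046. In CPM (counts scaled to library size with edgeR's TMM factors) the 3 libraries of TNF did not overlap the 3 of Control for any of the 10, and the same held for 48.7% of all tested genes. In TPM the groups were apart for 8 of the 10 and overlapped for Mavs and Sting1, and they were apart for 40.2% of all tested genes. The 10 genes were listed with earlier results of these data known, so the counts describe this set only.

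**Figure D1:**
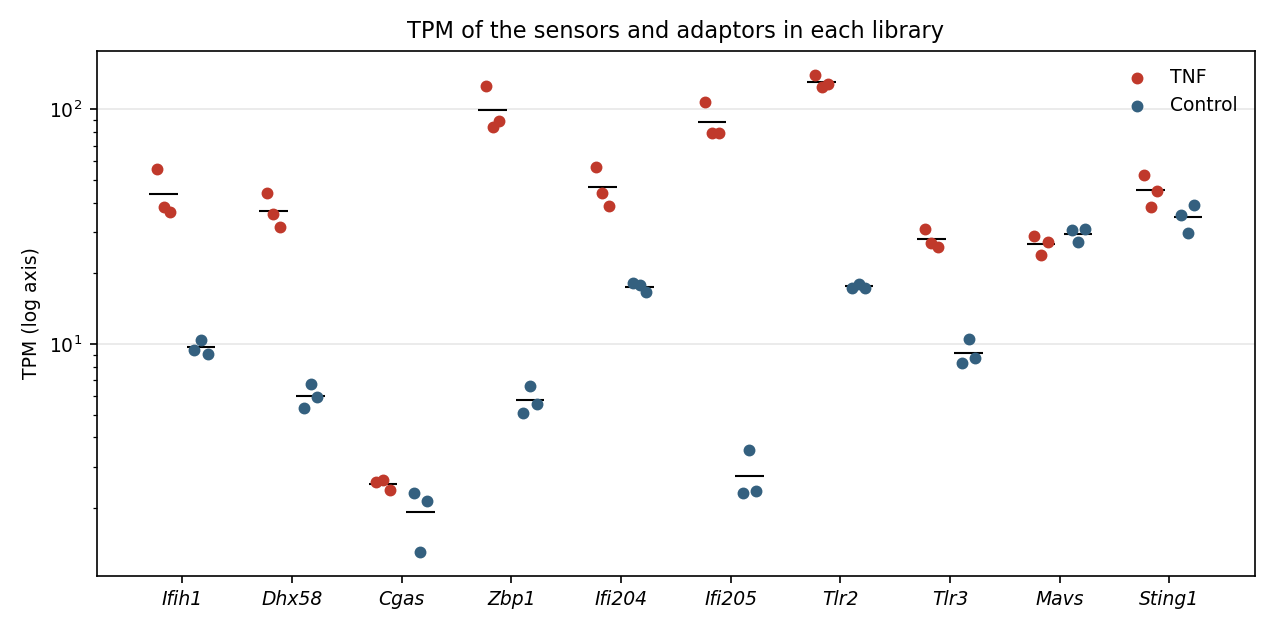
TPM of each of the 10 genes on a log axis, with 1 point per library (TNF at left, Control at right of each gene) and a bar at the mean of each group. The TNF points lie above the Control points for the 6 sensors Ifih1, Dhx58, Zbp1, Ifi204, Ifi205 and Tlr3, for Tlr2 and narrowly for Cgas, while those of Mavs and Sting1 overlap with Control.

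Upstream sequences are shown for genes from both ends of the response, to set strongly raised and unraised genes side by side. RefSeq promoter entries (build GRCm38.p6, which differs from the GRCm39 named for the deposited values) were at hand for 6 of the 10 genes. They were Ifih1, Ifi205, Cgas, Mavs, Tlr2 and Tlr3. Each window was the 250 bases before the start used by that table, read 5′ to 3′ on the gene's strand, and printed as far as the first base that lies in an annotated exon of the same gene. Capitals mark matches, on either strand, to the interferon-stimulated response element (GAAA, any 2 bases, GAAA) or to a kappaB-like site (GGG, any 5 bases, CC).
Ifi205, chr1:174031811-174032005, minus strand: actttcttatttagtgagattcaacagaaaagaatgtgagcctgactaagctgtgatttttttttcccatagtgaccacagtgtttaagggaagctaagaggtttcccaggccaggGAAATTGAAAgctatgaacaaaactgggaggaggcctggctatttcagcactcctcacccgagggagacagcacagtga
Tlr2, chr3:83841768-83841858, minus strand: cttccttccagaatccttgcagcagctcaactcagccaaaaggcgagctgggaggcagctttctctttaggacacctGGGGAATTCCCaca
Ifih1, chr2:62646256-62646505, minus strand: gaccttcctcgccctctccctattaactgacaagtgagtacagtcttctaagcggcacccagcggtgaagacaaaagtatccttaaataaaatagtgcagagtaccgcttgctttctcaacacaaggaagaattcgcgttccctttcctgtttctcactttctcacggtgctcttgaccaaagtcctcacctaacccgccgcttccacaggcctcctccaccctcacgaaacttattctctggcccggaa
Cgas, chr9:78443238-78443487, minus strand: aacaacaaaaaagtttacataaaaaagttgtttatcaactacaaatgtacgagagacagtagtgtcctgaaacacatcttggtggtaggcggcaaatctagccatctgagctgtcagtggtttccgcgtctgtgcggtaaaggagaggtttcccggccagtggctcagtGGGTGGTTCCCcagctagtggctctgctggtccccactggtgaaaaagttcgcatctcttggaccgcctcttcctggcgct
Mavs, chr2:131233813-131234062, plus strand: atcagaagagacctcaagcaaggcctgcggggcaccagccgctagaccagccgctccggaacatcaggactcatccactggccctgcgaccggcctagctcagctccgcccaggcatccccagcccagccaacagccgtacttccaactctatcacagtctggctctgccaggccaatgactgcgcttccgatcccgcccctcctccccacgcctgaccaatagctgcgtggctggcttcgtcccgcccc

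In Ifi205, the gene with the largest rise, GAAATTGAAA stood at bases 134 to 125 before the start, and 2.98% of all 32851 windows of this length in the table held a match to the interferon-stimulated response element. In Tlr2, overlapping kappaB-like matches covered bases 173 to 163 before the start. In Cgas, which was not called, overlapping kappaB-like matches covered bases 81 to 71. The kappaB-like letters are loose, and 45.8% of all windows held them. The window of Tlr3 had 2 kappaB-like matches, and its most upstream base lay in an annotated exon, so it is not printed. The windows of Ifih1, which rose, and Mavs, which did not, held none of the motifs searched. A gamma-activated site (TTCNNNGAA, in 7.02% of all windows) was found in 0 of the 6.

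The RIG-I-like receptors rose while their adaptor did not. Ifih1 encodes MDA5, the receptor of long double-stranded RNA. It had 55.5, 38.5 and 36.7 TPM in TNF libraries 1, 2 and 3, against 9.43, 10.4 and 9.10 TPM in Control libraries 1, 2 and 3. Every TNF library was above every Control library, with the widest spread within TNF. The fitted log2 fold change was 2.05 ± 0.10 (SE; edgeR adjusted p = 1.76e-06), a 4.15-fold rise with a 95% interval of 3.54 to 4.86.

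Dhx58 encodes LGP2, a relative of MDA5 without the signalling domains, which modulates the other receptors. It had 43.9, 35.7 and 31.5 TPM in the TNF libraries, against 5.31, 6.73 and 5.93 TPM in the Control libraries. The groups were apart, and TNF library 1 was highest, as it was for Ifih1. The log2 fold change was 2.68 ± 0.17 (SE; edgeR adjusted p = 6.21e-06).

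Mavs, the mitochondrial adaptor to which both RIG-I and MDA5 connect, had 28.7, 23.9 and 27.3 TPM in the TNF libraries, against 30.7, 27.1 and 30.8 TPM in the Control libraries. The groups overlapped in TPM, and in CPM the TNF libraries (44.5 to 46.1 CPM) lay just below the Control libraries (47.0 to 48.9 CPM). Mavs was not called (log2 fold change -0.08 ± 0.07 SE; edgeR adjusted p = 0.388). The 95% interval of its fold, 0.845 to 1.05, holds no rise as large as the smallest called among the 10, that of Sting1.

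Because the receptors and the adaptor moved differently, their ratio within a library shifted, and this ratio does not depend on how libraries were scaled. The TPM of Ifih1 was 1.93, 1.61 and 1.34 times that of Mavs in TNF libraries 1, 2 and 3, against 0.307, 0.385 and 0.295 times in Control libraries 1, 2 and 3. In the TNF libraries the receptor's transcript was thus the more abundant per length, and in the Control libraries that of the adaptor was. The Dhx58 to Mavs ratio was 1.39 ± 0.205 in TNF and 0.204 ± 0.0390 in Control (SD, n = 3 each). Between the receptors, the Dhx58 to Ifih1 ratio was 0.859 ± 0.0682 in TNF and 0.620 ± 0.0491 in Control. Of 6 such ratios computed in all, 5 reached p = 0.1 in an exact two-sided permutation test over libraries (adjusted over the 6, p = 0.12), and 0.1 is the smallest p that 3 against 3 libraries can give.

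Ifi205 and Zbp1 had the largest fitted rises of the 10, and Ifi204 the smallest of the 7 that were at least 2-fold. Zbp1, whose product can recruit RIPK3 and start necroptosis, had 126, 84.4 and 89.5 TPM in the TNF libraries, against 5.05, 6.60 and 5.56 TPM in the Control libraries. The groups were far apart, with TNF library 1 the highest, and the counts behind these levels were 1781 to 2800 in TNF and 115 to 230 in Control. The log2 fold change was 4.26 ± 0.19 (SE; edgeR adjusted p = 1.15e-06), a 19.2-fold rise (95% interval 14.1 to 26.0). Only 0.553% of tested genes had a larger fitted rise.

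Ifi205 is a p200 family gene of the interferon-inducible cluster on chromosome 1. It had 107, 79.0 and 79.6 TPM in the TNF libraries, against 2.31, 3.52 and 2.36 TPM in the Control libraries. The groups were far apart, and Control library 2 was the highest of its group. The log2 fold change was 5.05 ± 0.23 (SE; edgeR adjusted p = 1.14e-06), or 33.2-fold with a 95% interval of 23.2 to 47.6, and it was the largest of the 10.

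Ifi204, a mouse p200 gene studied as a DNA sensor, had 57.0, 43.9 and 38.7 TPM in the TNF libraries, against 18.2, 17.8 and 16.7 TPM in the Control libraries. It was apart between groups as well, but by far less than its relative. Its log2 fold change was 1.48 ± 0.14 (SE; edgeR adjusted p = 7.91e-05). The Ifi205 to Ifi204 ratio in TPM was 1.91 ± 0.130 in TNF and 0.155 ± 0.0374 in Control (SD, n = 3 each), so that Ifi205 was the more abundant of the pair in TNF and the less abundant in Control. Genes of this family resemble each other, so how reads were shared out between them is uncertain.

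In the cGAS-STING branch the differences were small. Cgas, which encodes the DNA-activated cGAMP synthase, was the least abundant of the 10 in both groups. It had 2.57, 2.62 and 2.38 TPM in the TNF libraries, against 2.31, 1.30 and 2.15 TPM in the Control libraries. The groups were separated by less than 0.1 TPM, and Control library 2 lay below the other 5. Cgas was not called (log2 fold change 0.51 ± 0.19 SE; edgeR adjusted p = 0.0698), with a 95% interval of the fold from 1.06 to 1.91 before adjustment for the number of genes. DESeq2 called it (adjusted p = 0.0374). Without Control library 2 the log2 fold change of Cgas was 0.32 (edgeR adjusted p = 0.123), and without library 2 of both groups it was 0.22 (edgeR adjusted p = 0.228). In limma on log2(TPM + 1) the difference was 0.29 (adjusted p = 0.187).

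Sting1 encodes the adaptor that cGAMP activates. It had 52.7, 38.2 and 44.8 TPM in the TNF libraries, against 35.4, 29.7 and 39.0 TPM in the Control libraries. These levels overlapped, since TNF library 2, with its large share of 18S reads, was below Control library 3. Scaled as CPM the groups were apart, at 41.6 to 49.7 CPM in TNF and 31.4 to 34.0 CPM in Control. Sting1 rose by a log2 fold change of 0.47 ± 0.09 (SE; edgeR adjusted p = 0.00366), or 1.39-fold. The call was lost when libraries were scaled by their totals (adjusted p = 0.0606) and in limma on the deposited TPM (adjusted p = 0.117 and 0.119 with pseudocounts of 0.1 and 1). With TPM rescaled after the 18S row was removed, limma called it (adjusted p = 0.0342). The Cgas to Sting1 ratio was 0.0569 ± 0.0104 in TNF and 0.0547 ± 0.0107 in Control (SD, n = 3 each), with overlapping libraries (exact permutation p = 0.8).

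Both Toll-like receptors rose. Tlr2, the lipoprotein receptor, had 141, 125 and 128 TPM in the TNF libraries, against 17.4, 18.1 and 17.3 TPM in the Control libraries. It had the highest mean of the 10 in TNF, and its Control libraries lay within 1 TPM of each other. The log2 fold change was 2.97 ± 0.10 (SE; edgeR adjusted p = 3.99e-07), or 7.82-fold with a 95% interval of 6.62 to 9.22.

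Tlr3, the endosomal receptor of double-stranded RNA, had 30.8, 26.9 and 26.0 TPM in the TNF libraries, against 8.33, 10.5 and 8.70 TPM in the Control libraries. The lowest TNF library lay well above the highest Control library. The log2 fold change was 1.67 ± 0.12 (SE; edgeR adjusted p = 1.95e-05), or 3.18-fold. The Tlr2 to Tlr3 ratio was 4.71 ± 0.188 in TNF and 1.93 ± 0.191 in Control (SD, n = 3 each).

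**Figure D2:**
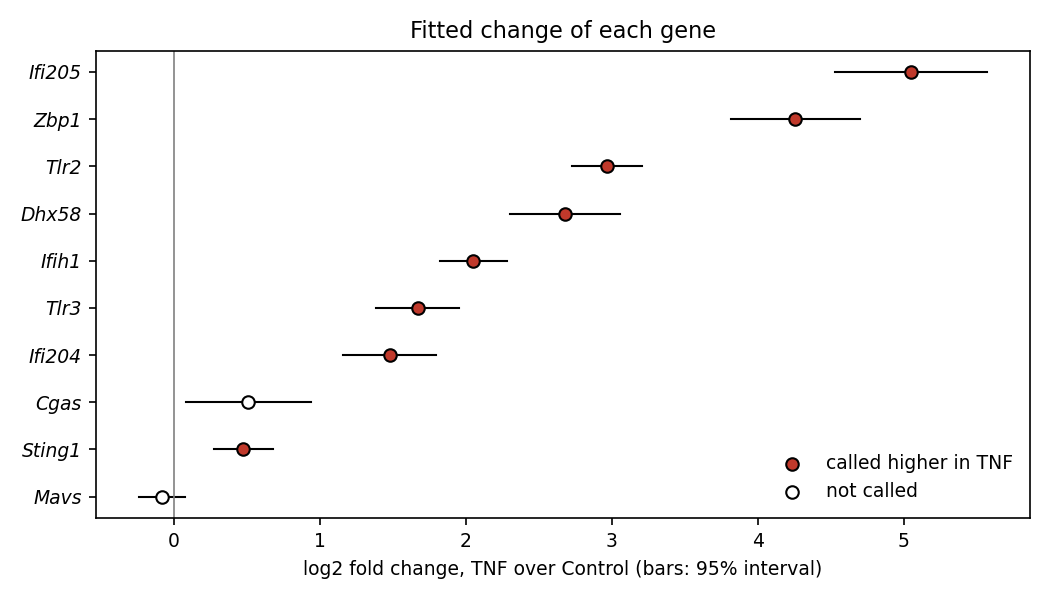
Fitted log2 fold change of TNF over Control for each of the 10 genes, with 95% intervals as bars; filled points were called higher and open points were not called. The values run from -0.08 for Mavs to 5.05 for Ifi205, and the interval of Mavs holds 0.

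The order of levels differed between the groups. In TNF, by mean TPM, it ran Tlr2, Zbp1, Ifi205, Ifi204, Sting1, Ifih1, Dhx58, Tlr3, Mavs and Cgas. Neighbours in that order had overlapping ranges over the libraries, except that Ifi205 was apart from Ifi204, Dhx58 from Tlr3, and Mavs from Cgas. Within each TNF library, though, Tlr2 was above Zbp1, Zbp1 above Ifi205, and Ifih1 above Dhx58. For the other overlapping neighbours the order differed between libraries. In Control the order was Sting1, Mavs, Tlr2, Ifi204, Ifih1, Tlr3, Dhx58, Zbp1, Ifi205 and Cgas. There the overlapping neighbours were Sting1 with Mavs, Tlr2 with Ifi204, Ifih1 with Tlr3, and Dhx58 with Zbp1. Within each Control library Sting1 was above Mavs and Dhx58 above Zbp1, while the order in the other overlapping pairs differed between libraries. Ifi205 and Cgas were only just apart, with the lowest Control library of Ifi205 at 2.313 TPM and the highest of Cgas at 2.306 TPM. The adaptors Mavs and Sting1 were thus the top pair in Control, while in TNF Sting1 stood at place 5 and Mavs at place 9.

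Summed over the 10 genes, the level was 645, 498 and 505 TPM in TNF libraries 1, 2 and 3, against 134, 132 and 138 TPM in Control libraries 1, 2 and 3. With 18S left out of the TPM the sums were 666, 621 and 510 in the TNF libraries and 138, 133 and 143 in the Control libraries. Mavs and Sting1 together had 62.2 to 81.4 TPM in TNF libraries and 56.8 to 69.8 TPM in Control libraries, and so held 12.5% to 14.3% of the sum in TNF libraries and 43.1% to 50.7% in Control libraries. Tlr2, Zbp1 and Ifi205 made up most of what was added.

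**Figure D3:**
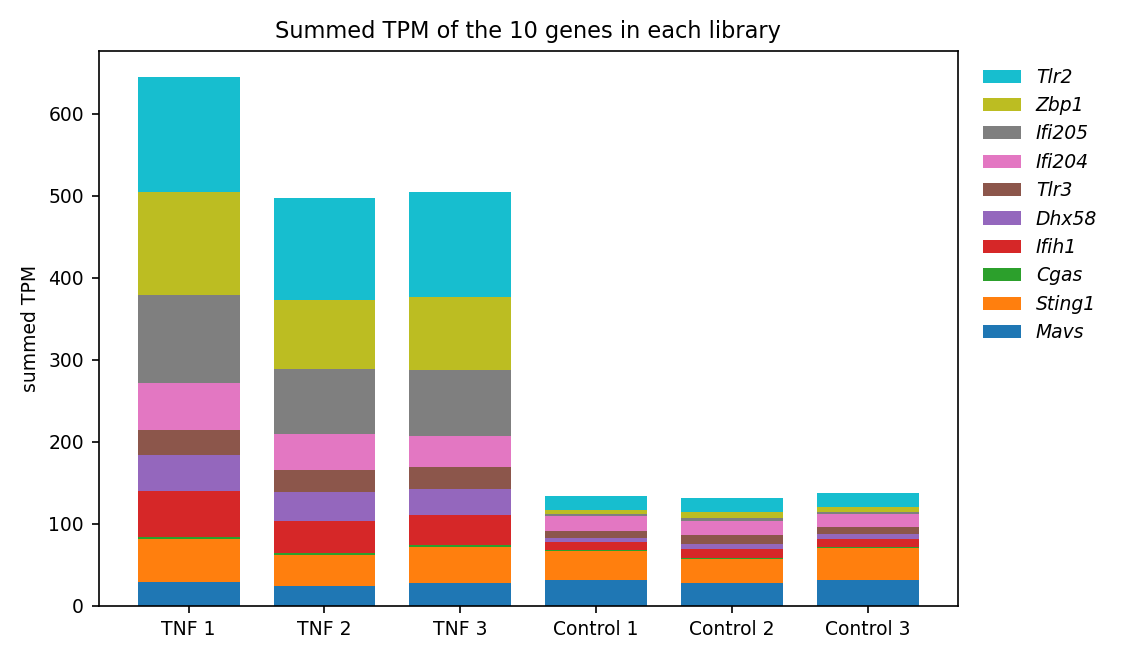
Summed TPM of the 10 genes in each library (3 TNF libraries left, 3 Control libraries right), stacked by gene with the adaptors Mavs and Sting1 at the bottom. The stacks reach 498 to 645 TPM in TNF and 132 to 138 TPM in Control, while the 2 lowest blocks together reach 62.2 to 81.4 TPM in TNF and 56.8 to 69.8 TPM in Control.

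The genes whose profile over the 6 libraries was closest to that of a sensor were found by the root-mean-square (RMS) difference in log2 CPM, each gene set to its own Control mean, among 12962 genes. The RMS difference is a description, and most of it reflects a like fold change. Closest to Ifih1 were Tor3a (RMS difference 0.0380), Ddx58 (0.0447) and Alas1 (0.0571). Ddx58 is the older symbol of Rigi and encodes RIG-I. Among the closest to Dhx58 were Mx2 (0.105) and Hp (0.117), and closest to Tlr3 were Dtx3l (0.0723), Slc12a5 (0.0749) and Kank4 (0.0862). Tlr2 was closest to Sod2 (0.0685), Rtp4 (0.0754) and Stx11 (0.0860). Ifi205 was closest to H2-Q4 (0.174), H2-Q6 (0.189) and Gbp10 (0.203), and Zbp1 to Gm12250 (0.158), Gbp2 (0.159) and Slc7a11 (0.210). Ifi204 was closest to Sp100 (0.0933), Fmo1 (0.0976) and Pfkfb3 (0.119). Mavs was closest to Ssrp1 (0.0216), Hdac2 (0.0240) and Twf2 (0.0242), none of which had a fitted log2 change beyond 0.10 in size.

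Among other RNA sensors and their activators, 8 of 15 tested genes rose and 1 fell, with a median log2 fold change of 0.37. Of all tested genes, 16% were called higher and 16.4% lower. Ddx58 had 94.5, 78.6 and 79.8 TPM in the TNF libraries, against 21.4, 21.5 and 22.2 TPM in the Control libraries, and rose by 2.02 ± 0.10 on the log2 scale (SE; edgeR adjusted p = 1.84e-06). Its fold change and that of Ifih1 differed by less than the SE of either. Eif2ak2, which encodes the RNA-activated kinase PKR, rose (log2 fold change 1.28), as did the RNA editor Adar (1.21) and Trim25 (0.98), a ubiquitin ligase that activates RIG-I. The gene that fell was Nlrp1b (log2 fold change -1.01), named after its value was seen. Its level was low, at 0.253 to 0.362 TPM in TNF libraries and 0.533 to 0.692 TPM in Control libraries.

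Among other DNA sensors and p200 genes, 10 of 23 tested genes rose and 2 fell, with a median log2 fold change of 0.19. The shares over all tested genes were 16% higher and 16.4% lower. Of the further p200 genes, Mndal, Ifi203, Ifi206, Ifi207, Ifi208, Ifi209 and Ifi211 all rose, by 0.79 to 3.75 on the log2 scale. With Aim2, these are all the p200 genes of the list that were measured. The top of that range rests on few Control counts. Ifi206 (3.75) had 11, 32 and 18 counts in Control libraries 1, 2 and 3, and Ifi208 (3.66) had 3, 3 and 5. Ifi203 rose by 3.27 and Mndal by 2.35. Aim2, which builds an inflammasome on DNA, averaged 8.92 ± 1.10 TPM in TNF and 3.20 ± 0.649 TPM in Control (SD, n = 3 each). Its count-based log2 fold change was 0.82 ± 0.13 (SE; edgeR adjusted p = 0.00126), smaller than the TPM means give. Trex1, the nuclease that clears cytosolic DNA, had 245, 167 and 194 TPM in the TNF libraries, against 48.3, 42.7 and 52.8 TPM in the Control libraries, with a log2 fold change of 2.15 ± 0.12 (SE; edgeR adjusted p = 2.80e-06). Samhd1, which depletes nucleotides, rose by 0.45. The genes that fell were Xrcc5 (-0.48) and Xrcc6 (-0.29), subunits of the Ku DNA-end binder, named after their values were seen.

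Other Toll-like receptors and their partners went both ways, 4 of 16 higher and 5 lower (median log2 fold change -0.09). Over all tested genes 16% were called higher and 16.4% lower. Tlr9, the endosomal DNA receptor, fell by 1.59 on the log2 scale at a level under 1 TPM in every library. Tlr7, a receptor of single-stranded RNA, had 3.90, 3.40 and 4.92 TPM in the TNF libraries, against 3.80, 3.86 and 2.87 TPM in the Control libraries, and was not called (edgeR adjusted p = 0.382). Tlr4, the endotoxin receptor (adjusted p = 0.235), and Unc93b1, the chaperone of endosomal Toll-like receptors (0.159), were not called either. Named after their values were seen, Tlr1, Cd14, Ly96 and Lbp rose and Tlr5, Tlr8, Tlr13 and Mertk fell. Tlr5 had only 14 to 20 counts in TNF libraries and 37 to 46 in Control libraries. Tlr8 and Tlr13 are receptors typical of myeloid cells, and the macrophage markers C1qa, C1qb, C1qc, Mrc1, Cx3cr1, Cd68 and Aif1 fell in the same libraries, while Spi1, Csf1r, Cybb and Cd14 rose. In TPM the groups overlapped for Csf1r (159 to 220 TPM in TNF, 162 to 169 TPM in Control). The part of macrophages in these changes was not tested.

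Downstream of the sensors 15 of 26 tested genes rose and the other 11 were not called (median log2 fold change 0.54). For all tested genes the shares were 16% higher and 16.4% lower. The kinase Ikbke (IKKε) rose by 1.97 and its relative Tbk1 by 0.73 on the log2 scale. Irf7, the interferon-inducible transcription factor of this pathway, had 129.7, 81.8 and 76.6 TPM in the TNF libraries, against 10.6, 11.9 and 11.7 TPM in the Control libraries, a log2 fold change of 3.13 ± 0.19 (SE; edgeR adjusted p = 5.88e-06). Irf3, the factor that is present before stimulation, had 28.2, 25.4 and 29.9 TPM in the TNF libraries, against 32.1, 23.6 and 34.5 TPM in the Control libraries, and was not called (edgeR adjusted p = 0.817). Irf1 rose by 2.43. The Toll-like receptor adaptor Myd88 rose by 0.74, whereas Ticam1 (TRIF), the adaptor of TLR3, was not called (log2 fold change -0.10; edgeR adjusted p = 0.507). Of the necroptosis genes downstream of ZBP1, Mlkl, which encodes the executor, rose by 1.57. Ripk3, which encodes the kinase that activates MLKL, had 3.57 to 4.19 TPM in TNF and 4.08 to 4.27 TPM in Control. It was not called (edgeR adjusted p = 0.196).

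Genes that restrain these pathways were called higher in 9 cases of 23 and lower in 2 (median log2 fold change 0.19). Among all tested genes 16% were called higher and 16.4% lower. Usp18, which dampens interferon receptor signalling, rose by 3.56 on the log2 scale, and Nlrx1, a mitochondrial protein that interacts with MAVS, was not called (log2 fold change -0.21; edgeR adjusted p = 0.0935). The genes that fell were Enpp1, which hydrolyses cGAMP outside cells, and Sarm1, both named after their values were seen. Enpp1 had 12.9, 11.1 and 14.6 TPM in the TNF libraries, against 37.4, 36.3 and 33.9 TPM in the Control libraries, a log2 fold change of -1.55 ± 0.11 (SE; edgeR adjusted p = 1.11e-05).

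Of interferons, their receptors and STATs, 13 of 22 were tested, of which 10 rose and 3 were not called (median log2 fold change 1.10). By comparison, 16% of all tested genes were called higher and 16.4% lower. Stat2 rose by 1.83 and Irf9 by 1.20 on the log2 scale, both of which act downstream of the type I interferon receptor, and the receptor chain Ifnar1 rose by 0.48. The 9 interferon genes on the list, Ifnb1 among them, were not analysed here.

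**Figure D4:**
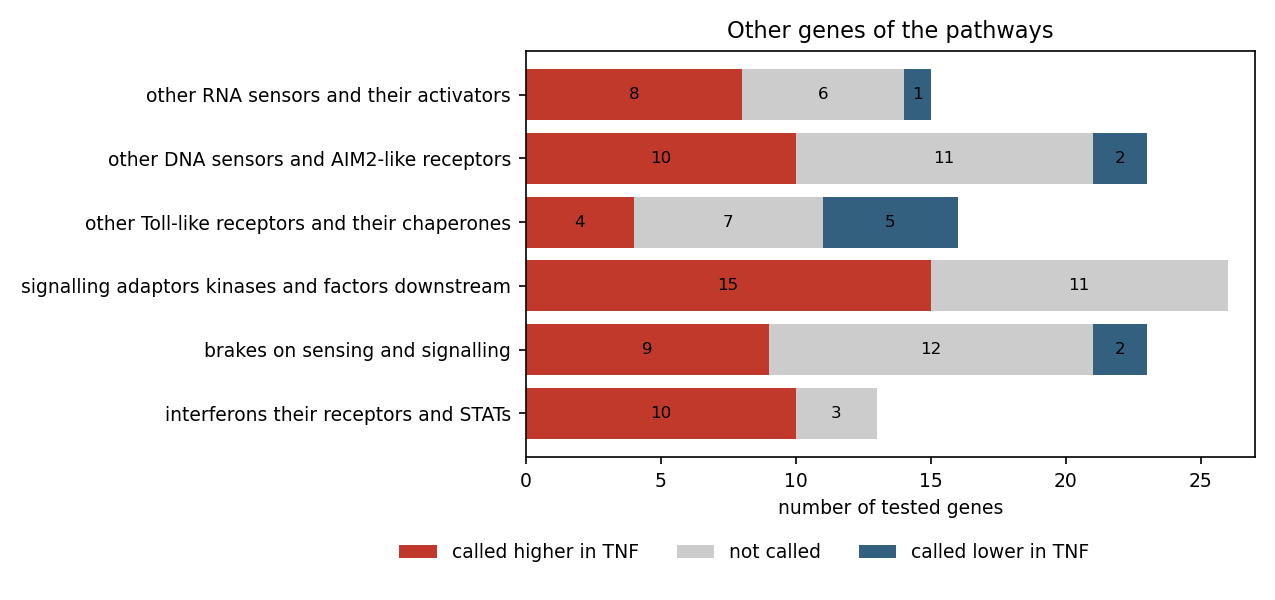
Number of tested genes called higher, not called and called lower in TNF in 6 lists of other pathway genes. Calls to the higher side outnumber those to the lower side in all lists but that of other Toll-like receptors, where 4 were higher and 5 lower. Over all tested genes 16% were called higher and 16.4% lower.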

How the data were processed

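The authors' processing notes name Trim Galore, STAR, StringTie and Salmon and the build GRCm39, with roles, versions and settings not given in the sources used here. Per the labels, libraries came from total RNA and a stranded SMART-Seq kit. The deposited expected counts are whole numbers without gene names. Their header calls them both normalized and raw, and they were read as raw because totals differ between libraries (45629973 to 77142418). The deposited TPM sum to 1000000 per library over the listed genes, 18S included. Count lines were joined to TPM lines by position within a library, and the 260 zeros of the counts fell on the 260 zeros of the TPM.

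Counts were fitted over all genes with edgeR 4.0.16 in R 4.3.3 (filterByExpr, TMM, glmQLFit, glmQLFTest, group as the only term, two-sided). SE is the absolute log2 fold change over the square root of F. The fit was also run on simulated counts in which few genes changed. Many genes were called here, so that run does not test the scaling of these libraries. Alternatives used limma 3.58.1 and DESeq2 1.42.0. The genes, lists and alternatives were chosen with earlier results of these data known. Named genes are the 10 members, 29 fixed pathway genes where measured, and, where stated, genes from counts of 5 or fewer. One gene that this rule names is not reported here.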

Additional observations from a re-analysis of the deposited data

How the results depend on the processing

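Of the 10 genes, 8 kept their direction and their side of the threshold under all 18 alternatives, among them Mavs, which was never called (adjusted p 0.301 to 0.713). Sting1 lost its call in 3 and Cgas gained one in 1, as given with their values above. The count called higher was 8 in most settings, 7 with library totals or limma on deposited TPM and 9 with DESeq2. Leaving out each library in turn gave 8 each time. Over all genes, 2489 were called higher and 2550 lower. The higher count was 1612 with library totals, 1479 and 1475 with limma on log2(TPM + 1) and log2(TPM + 0.1), and 1587 at an adjusted p under 0.01, where 1534 were lower. Calls to the higher side were 38.5% of all calls with library totals, 40.3% and 40.5% with limma on log2(TPM + 1) and log2(TPM + 0.1), and 49.4% with TMM. The replicate block gave 1987 higher and 1993 lower and changed no call among the 10. The labels do not say that a number marks a shared animal or culture, so the number was not taken as a pairing. Deviations of same-numbered libraries had correlations of -0.012, -0.304 and -0.222, and those of other pairs ran from -0.230 to 0.356. With 3 libraries per group, each set to its group mean, these correlations cannot exclude a shared animal or culture. Without TNF library 1 the counts over all genes were lowest (1721 higher, 1728 lower), and without Control library 2 they were highest among single omissions (2413 and 2382). The limma fit on rescaled TPM was chosen after seeing the data. Counts were lowest for Zbp1 (115 to 230) and Ifi205 (121 to 268) in Control and for Cgas (273 to 305) in TNF.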
